A study of Mus musculus with 4 samples.

Results

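The mRNA levels of 10 genes of the heat shock and oxidative stress responses were followed in single cells of mouse bone. These were Hspa1a and Hspa1b, which encode the inducible HSP70 chaperones, Hspb1, Dnajb1, Hsp90aa1, Hspa8, Hsph1, the mitochondrial pair Hspd1 and Hspe1, and Hmox1. The genes were chosen by symbol, with earlier results of these data known, and each was found once among the 32285 genes measured. The libraries came from 1 young mouse of 6 months and 1 old mouse of 24 months, both INK-ATTAC mice that received no treatment. INK-ATTAC mice carry a transgene in which a fragment of the p16 promoter drives an inducible caspase 8, and both mice carried it. Marrow and bone of femur and tibia were digested with enzymes, cells of blood lineages were depleted, and live CD45- cells were sorted. The libraries hold only cells taken through these steps. Changes of mRNA during the preparation therefore cannot be told apart from levels in the bone. Each cell gave counts of unique molecular identifiers (UMIs, 1 per captured mRNA molecule) and a count of a DNA-tagged CD24 antibody. With such data the study set CD24+ against CD24- skeletal cells. Its comparisons of old with young mice were of proteins, measured by mass cytometry in cohorts of mice.

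Heat shock proteins are molecular chaperones that keep other proteins folded. HSP70 proteins bind unfolded stretches with the help of J-domain partners such as DNAJB1 and of exchange factors such as HSPH1. HSP90 finishes the folding of many kinases and receptors, small heat shock proteins such as HSPB1 hold unfolded proteins in solution, and HSPD1 forms with HSPE1 the folding chamber of mitochondria. HSPA8 is the constitutive member of the HSP70 family. The inducible genes are switched on by the transcription factor HSF1, which binds arrays of short units in their promoters. HMOX1 breaks down heme and is controlled by NRF2 and BACH1. It is well known in macrophages of spleen and marrow that recycle red cells.

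After barcodes with under 200 detected genes or over 20% mitochondrial UMIs were left out, 10063 young and 5607 old cells remained, with a median of 6385 and 9711 UMIs per cell. Cells were placed in groups by their marker UMIs, and a group name means a likeness to those markers. The mesenchymal groups held 7920 young and 4205 old cells, of which 3117 and 1947 were stromal-like, 2888 and 1304 fibroblast-like, 1068 and 587 osteoblast-like, 655 and 261 tendon-like, 114 and 30 chondrocyte-like, and 78 and 76 pericyte-like. Blood cells that passed the sort were erythroid-like (500 and 447), B-lineage-like (368 and 52), neutrophil-like (152 and 351) and megakaryocyte-like (69 and 51), and 10.3% and 8.72% of the cells stayed unassigned. In every group but the old chondrocyte-like cells the group's own marker list had the highest summed level. There the osteoblast list stood higher, at 16452 against 12351 CPM (UMIs of a gene per 1000000 UMIs of the summed cells). The libraries shared 25 barcode sequences.

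Promoter sequences are shown because several of the genes moved together, and because they show how near to identical Hspa1a and Hspa1b are. RefSeq promoter sequences (GRCm38.p6) were found for 7 of the 10 genes, with 10 start sites. None was found for Hsp90aa1, Hspa8 and Hmox1. The 250 bases before each start were searched on both strands for pairs of heat shock units, spelled GAANNTTC or TTCNNGAA. A pair was present before 7 of the 10 start sites, and 12.8% of all 32851 promoters held one. These sites are not separate promoters. The regions of Hsph1 overlap, Hspd1 and Hspe1 share a region, and Hspa1a and Hspa1b are near copies. The sequences below run 5′ to 3′ along the strand of the gene and end at the base before the start site, with pairs of units in capitals. They are Hspa1a (chr17:34972157-34972406, - strand), Hspb1 (chr5:135887669-135887918, + strand) and Hsph1 (chr5:149636337-149636586, - strand).
Hspa1a: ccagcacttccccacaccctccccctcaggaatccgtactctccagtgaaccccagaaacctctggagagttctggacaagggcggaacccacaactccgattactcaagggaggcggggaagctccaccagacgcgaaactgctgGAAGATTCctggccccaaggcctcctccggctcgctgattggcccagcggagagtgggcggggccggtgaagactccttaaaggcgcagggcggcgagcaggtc
Hspb1: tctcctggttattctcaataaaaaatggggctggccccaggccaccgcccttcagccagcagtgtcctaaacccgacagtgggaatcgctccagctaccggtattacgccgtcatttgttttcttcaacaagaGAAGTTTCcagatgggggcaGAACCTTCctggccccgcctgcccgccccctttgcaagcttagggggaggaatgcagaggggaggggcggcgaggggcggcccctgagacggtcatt
Hsph1: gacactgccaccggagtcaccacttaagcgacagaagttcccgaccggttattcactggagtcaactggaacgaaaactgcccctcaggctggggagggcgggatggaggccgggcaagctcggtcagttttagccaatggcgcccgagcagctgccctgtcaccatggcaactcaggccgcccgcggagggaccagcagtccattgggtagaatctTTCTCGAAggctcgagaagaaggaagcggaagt

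The promoters of Hspa1a and Hspa1b had the same base at 247 of 250 positions (98.8%). Both genes encode nearly the same protein, and reads of such copies can be divided between them in counting. Their transcript ends, which a 3′ library reads, were not compared, so values of either gene alone are taken as uncertain. Hspd1 and Hspe1 lie head to head on chromosome 1 and share the 215 bases between their start sites (chr1:55087933-55088147, shown on the + strand, which is the strand of Hspe1). They hold 1 run of alternating units of 18 bases, 71 bases from the Hspe1 start and 126 bases from the Hspd1 start. A run of at least 3 units, GAANNTTCNNGAA or TTCNNGAANNTTC, was found in 0.466% of all promoters. Among the 7 genes with a promoter sequence it was found only in this shared region.
Hspd1 and Hspe1: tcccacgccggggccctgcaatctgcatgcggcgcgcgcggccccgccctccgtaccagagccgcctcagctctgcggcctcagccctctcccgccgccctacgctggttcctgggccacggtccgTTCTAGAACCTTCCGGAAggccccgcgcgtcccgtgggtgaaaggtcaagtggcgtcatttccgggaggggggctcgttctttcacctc

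The core of the NRF2 site, TGACNNNGC, was in 10.2% of all promoters. It was found before the first start site of Dnajb1 and before both start sites of Hsph1, whose regions overlap. Hmox1, Hsp90aa1 and Hspa8 had no promoter sequence and were not searched. These matches are a description of letters and not of binding.

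The inducible HSP70 genes were highest in pericyte-like and chondrocyte-like cells. Hspa1a stood at 2101 CPM in young and 1219 CPM in old pericyte-like cells, and at 1403 and 1305 CPM in chondrocyte-like cells. These ranges overlapped each other, and both lay apart from the next group, tendon-like cells, at 1027 and 554 CPM. Osteoblast-like cells (722 and 490 CPM), stromal-like cells (579 and 392 CPM) and fibroblast-like cells (424 and 253 CPM) followed, each overlapping its neighbour in the order. Among blood cells, Hspa1a was between 129 and 439 CPM. Hspa1b had nearly the same order, from 1146 and 668 CPM in pericyte-like to 357 and 254 CPM in fibroblast-like cells, and no neighbours in its order stood apart.

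Hspb1 was set apart by pericyte-like cells, with 2320 CPM in the young and 1087 CPM in the old mouse. Stromal-like cells came next at 441 and 316 CPM, apart from pericyte-like cells. Osteoblast-like cells were low among mesenchymal groups at 133 and 52.6 CPM. In smooth muscle, whose markers define this pericyte-like group in part, HSPB1 is a known binding partner of the actin skeleton. Erythroid-like cells held 37.4 and 43.9 CPM, and B-lineage-like cells held 19.3 and 7.48 CPM.

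Single cells carried much of these sums. In young pericyte-like cells 1 cell held 1057 UMIs of the 10 genes among its 12044 UMIs (8.78%), and it alone gave 37.2% of the Hspa1a UMIs of its group. With the cell richest in each gene left out, pericyte-like Hspa1a fell to 1358 and 988 CPM, Hspb1 to 1718 and 994 CPM, and Dnajb1 from 305 and 160 to 167 and 119 CPM. In each mouse, Hspa1a thus stayed above its tendon-like and Hspb1 above its stromal-like level. In old chondrocyte-like cells 1 of the 30 cells gave 71.5% of the Hspb1 UMIs. Stromal-like cells showed the same unevenness over many cells, where the 5% of cells richest in each gene held 59.7% and 73.1% of the Hspa1a UMIs in the young and the old mouse. The same measure was 70.0% and 81.2% for Hspb1, and 26.4% and 29.7% for the constitutive Hspa8. The deepest 5% of these cells held 14.5% and 14.6% of all their UMIs.

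Dnajb1, the J-domain partner of HSP70, was highest in chondrocyte-like cells at 464 and 267 CPM, overlapping megakaryocyte-like cells at 296 and 217 CPM. In the old mouse the richest of the 30 chondrocyte-like cells gave 35.7% of the Dnajb1 UMIs. With the cell richest in Dnajb1 left out, chondrocyte-like cells held 399 and 181 CPM and megakaryocyte-like cells 265 and 220 CPM. Chondrocyte-like cells then no longer led in the old mouse. Stromal-like cells held 239 and 195 CPM, apart from fibroblast-like cells at 160 and 150 CPM. Osteoblast-like cells, at 105 and 81.4 CPM, were the lowest mesenchymal group. Hsph1 (HSP110) was highest in erythroid-like cells, at 129 and 101 CPM, and in stromal-like cells, at 123 and 83.7 CPM, which overlapped. It was lowest among mesenchymal groups in osteoblast-like cells, at 37.7 and 18.7 CPM.

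Erythroid-like cells led for HSP90 and for the mitochondrial pair. Hsp90aa1 reached 1741 and 1311 CPM there, apart from every other group, while osteoblast-like cells were lowest at 369 and 306 CPM. Hspd1 was 739 and 449 CPM in erythroid-like cells against 178 and 271 CPM in megakaryocyte-like cells, the next in order. Hspe1, its partner in the same folding chamber, was 1093 and 696 CPM in erythroid-like cells. Among mesenchymal groups both members of the pair varied little, Hspd1 between 93.1 and 177 CPM and Hspe1 between 187 and 311 CPM over the 2 mice. Hspa8 was evenly high, with 2368 and 2199 CPM in megakaryocyte-like cells at the top, 892 to 1553 CPM over mesenchymal groups, and 561 and 658 CPM in neutrophil-like cells at the bottom.

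Hmox1 followed another order. Neutrophil-like cells were highest at 116 CPM (95% exact Poisson interval 88.1 to 151) and 178 CPM (158 to 200), and stromal-like cells came second at 61.6 CPM (58.1 to 65.2) and 71.5 CPM (67.5 to 75.6). Each stood apart from its neighbour in the order. Fibroblast-like cells held 16.5 and 24.7 CPM, and osteoblast-like cells 11.1 and 10.6 CPM. The old pericyte-like value of 32.3 CPM rested on 22 UMIs, of which 19 were in 1 cell. Such intervals cover counting error only and not the spread between mice or cells.

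A UMI of Hmox1 was found in 15.3% of young and 22.9% of old stromal-like cells (exact Clopper-Pearson intervals 14.1 to 16.6% and 21.0 to 24.8%). Erythroid-like cells, which hold almost no Hmox1 mRNA, gave a background of 1.8% and 1.79% although they were deeper, with median depths of 17802.5 and 18379 UMIs against 5324 and 8372. With every cell thinned to 2000 UMIs and shallower cells left out (770 young and 496 old over all groups), the shares were 7.58% and 9.20% in stromal-like and 0.415% and 0.711% in erythroid-like cells. Macrophages, the textbook Hmox1 source in marrow, did not form a group here, with 1 cell placed by the macrophage list in the young library and none in the old.

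**Figure D1:**
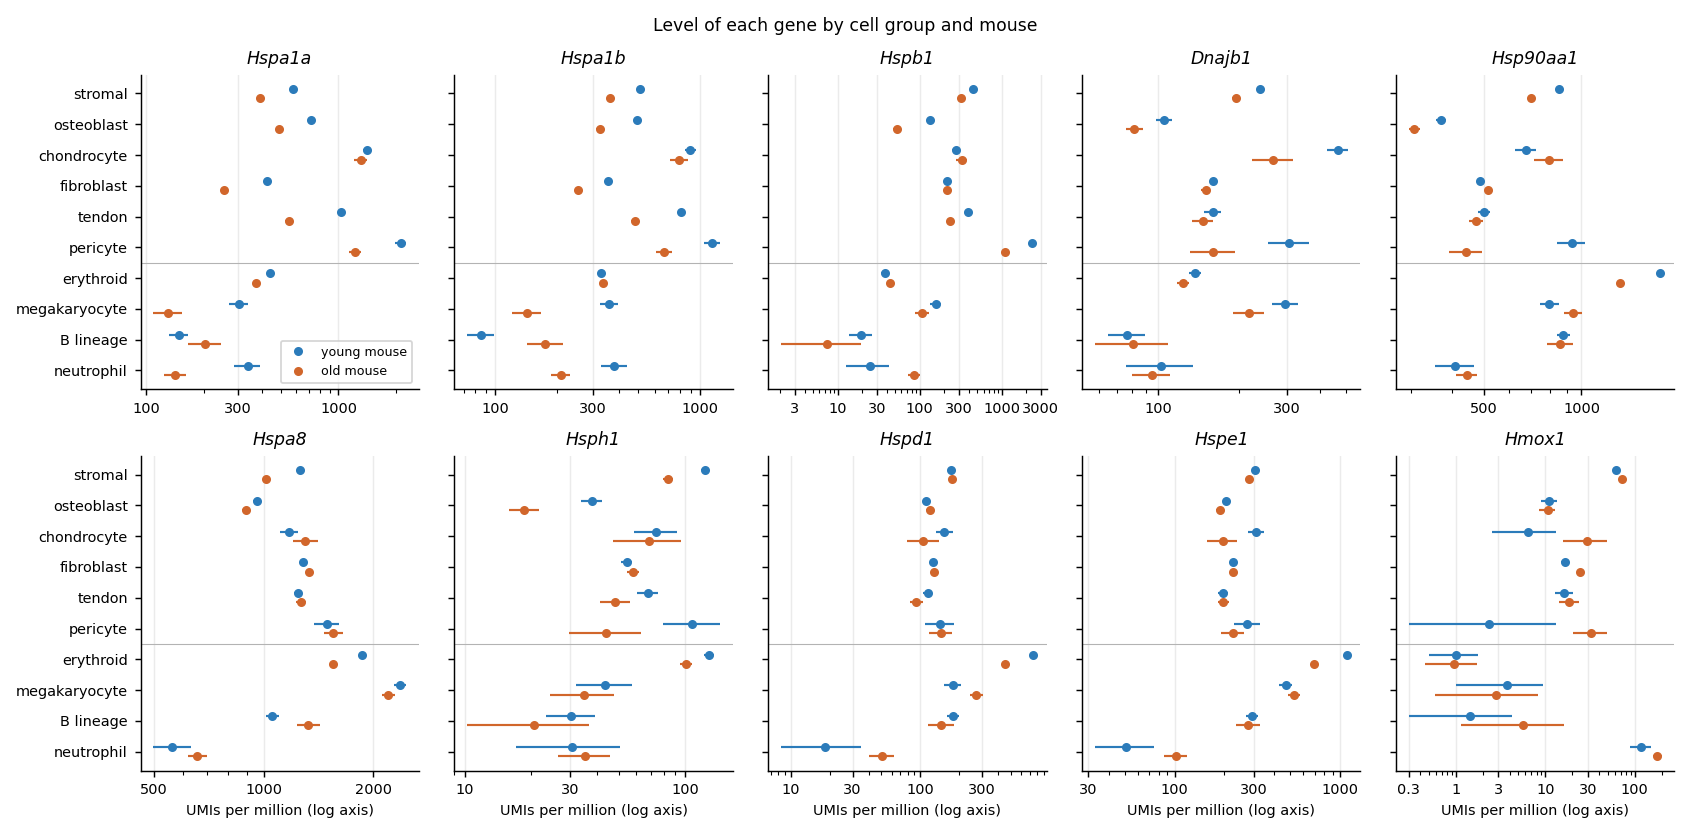
Level of each of the 10 genes in CPM (log axes) by cell group, in the young mouse (blue) and the old mouse (orange), with 95% exact Poisson intervals as lines, where low ends under 0.3 are not drawn. Hspb1 stood at 2320 and 1087 CPM in pericyte-like cells against 441 and 316 CPM in stromal-like cells, and Hmox1 was led by neutrophil-like and stromal-like cells.

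Each mesenchymal group with at least 50 cells per library was set against the mean of the others in 1 edgeR quasi-likelihood fit over 10 sums (5 groups in 2 mice), with the mouse as a block. The chondrocyte-like group was too small to enter. No gene of the 10 was a marker used to place cells. Adjusted p-values (Benjamini-Hochberg over the 14526 genes tested) rest on how evenly group differences repeat in 2 mice of different age. The block takes out the mean difference between these mice. Of the 50 tests of the 10 genes 24 passed an adjusted p of 0.05, where between 18.9% and 46.7% of all genes passed in each comparison. The 50 tests are not independent, since each group is part of the mean that others are set against.

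In pericyte-like cells 5 of the 10 genes rose and none fell, where 21.9% of all genes tested passed. Hspb1 rose by 2.89 on the log2 scale (SE 0.17, edgeR adjusted p = 3.01e-06) and Hspa1a by 1.62 (SE 0.09, adjusted p = 2.3e-06). Hspa1b rose by 1.04 (edgeR adjusted p = 3.66e-05), Dnajb1 by 0.59 (adjusted p = 0.0243) and Hspa8 by 0.40 (adjusted p = 0.0134). Without the cell richest in the 10 genes in each group and mouse, Dnajb1 stood at -0.08 (edgeR adjusted p = 0.696) and Hspa8 at 0.30 (adjusted p = 0.0527), and the other calls held. The Dnajb1 call was also lost at a 10% mitochondrial limit (0.15, edgeR adjusted p = 0.368). Hmox1, which had not passed, was lower when a cell needed 1 more marker to be placed (-2.58, edgeR adjusted p = 0.002). Immediate-early genes, which respond within minutes to many stimuli, were raised in the same cells. Of 14 tested, 8 rose and none fell, led by Nr4a1 at 2.47, Atf3 at 2.12 and Btg2 at 2.00, with a median of 0.50 against -0.14 over all genes. Their summed level was 23167 and 20445 CPM in pericyte-like cells, 17722 and 22618 CPM in chondrocyte-like cells, and 9911 to 17581 CPM in the other mesenchymal groups. The median mitochondrial share of pericyte-like cells was 4.17% and 3.55%, against 2.08 to 3.02% in the others. The part of either in the result was not tested.

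The chaperone lists of pericyte-like cells gave different counts. Of 13 chaperones of the endoplasmic reticulum 12 fell, led by Sdf2l1 at -1.46, Pdia4 at -1.28 and Pdia6 at -1.23, with a median of -1.12. Of 25 further cytosolic chaperones and co-chaperones 5 rose and 3 fell, with Cryab, a small heat shock protein of muscle, at 1.66 and Hspa2 at 1.62. Of 6 mitochondrial chaperones 2 rose and none fell, with Grpel1 at 0.56 and Hspa9 at 0.50. Among 28 NRF2 and oxidative stress genes 3 rose and 5 fell, from the metallothionein gene Mt1 at 1.48 to the secreted peroxidase gene Gpx3 at -3.59.

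Stromal-like cells split the 10 genes, with 4 higher and 3 lower, where 46.7% of all genes passed. Hmox1 rose by 1.80 (SE 0.18, edgeR adjusted p = 3.85e-05) and Hsph1 by 0.82 (SE 0.17, adjusted p = 0.00377). Hspd1 and Hspe1 rose by 0.32 and 0.25, Hspe1 no longer passing when a cell needed 1 more marker to be placed (edgeR adjusted p = 0.0586). Hspa1a fell by 0.75 (SE 0.11, edgeR adjusted p = 0.00035), Hspa1b by 0.44 and Hspa8 by 0.32. Around Hmox1, 9 of the 28 oxidative stress genes rose and 7 fell. The cystine carrier gene Slc7a11 stood at 4.54 (SE 0.89), with a low level of 6.22 and 5.79 CPM over all mesenchymal cells. Glutathione reductase (Gsr) stood at 2.67 (SE 0.15) and G6pdx, which supplies NADPH, at 1.76, while Sod3 stood at -1.85. Of the 14 immediate-early genes 10 fell and none rose, Atf3 most at -2.32. Of the other cytosolic chaperones 4 rose and 14 fell, Cryab most at -3.91, and 2 mitochondrial ones fell. Of those of the endoplasmic reticulum 6 rose and 1 fell. The neutrophil list was at 3522 and 4430 CPM in stromal-like cells, against 20.1 to 380 CPM in the other mesenchymal groups, and 250325 and 235325 CPM in neutrophil-like cells, the highest group for Hmox1. Its part in the Hmox1 level was not tested.

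Osteoblast-like cells had 6 of the 10 genes lower and none higher, where 27.1% of all genes passed. Hspb1 fell by 2.28 (SE 0.23, edgeR adjusted p = 0.0001), Hsph1 by 1.25 (SE 0.21, adjusted p = 0.00177) and Hmox1 by 1.14 (SE 0.24, adjusted p = 0.00665). Dnajb1 fell by 0.87, Hsp90aa1 by 0.71 and Hspa8 by 0.37. The Hmox1 call was lost when a cell needed 1 more marker to be placed (-0.52, edgeR adjusted p = 0.104). Of the oxidative stress genes 14 fell and 2 rose, with Sod3 at -2.08, Mt1 at -1.44 and Mt2 at -1.43. Of the immediate-early genes 7 fell and none rose. The cytosolic list had 2 higher and 3 lower, and the endoplasmic reticulum list 3 higher and 1 lower. The collagen chaperone gene Serpinh1, at 1.38, led that list.

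Fibroblast-like cells had 3 of the 10 genes lower and none higher, where 27.1% of all genes passed. Hspa1a fell by 1.19 (SE 0.11, edgeR adjusted p = 4.22e-05), Hspa1b by 0.84 (SE 0.10, adjusted p = 0.000201) and Hspb1 by 0.62 (SE 0.20, adjusted p = 0.0493). The Hspb1 call was lost without the richest cell of each group (-0.47, edgeR adjusted p = 0.0676). Their oxidative stress list went the other way, with 15 genes higher and 2 lower, led by Mt2 at 1.90, Sod3 at 1.83, Txn1 at 1.36 and Srxn1 at 1.35. Of the other cytosolic chaperones 7 rose, Hspb8 at 2.13 and its partner Bag3 at 0.91 among them, and 3 of the endoplasmic reticulum rose. Immediate-early genes had 3 higher and 1 lower.

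In tendon-like cells 3 of the 10 genes passed, where 18.9% of all genes did. Hspa1b rose by 0.49 (SE 0.09, edgeR adjusted p = 0.00465) and Hspa1a by 0.34 (SE 0.10, adjusted p = 0.038), while Hspd1 fell by 0.35 (SE 0.10, adjusted p = 0.043). Beside them 6 of the 14 immediate-early genes rose, Ier3 at 1.13 and Dusp1 at 0.93. Of the other cytosolic chaperones 6 rose and of the endoplasmic reticulum list 7 rose, and of the oxidative stress genes 4 rose and 4 fell. All 3 calls of the heat shock genes were lost when a cell needed 1 more marker to be placed.

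**Figure D2:**
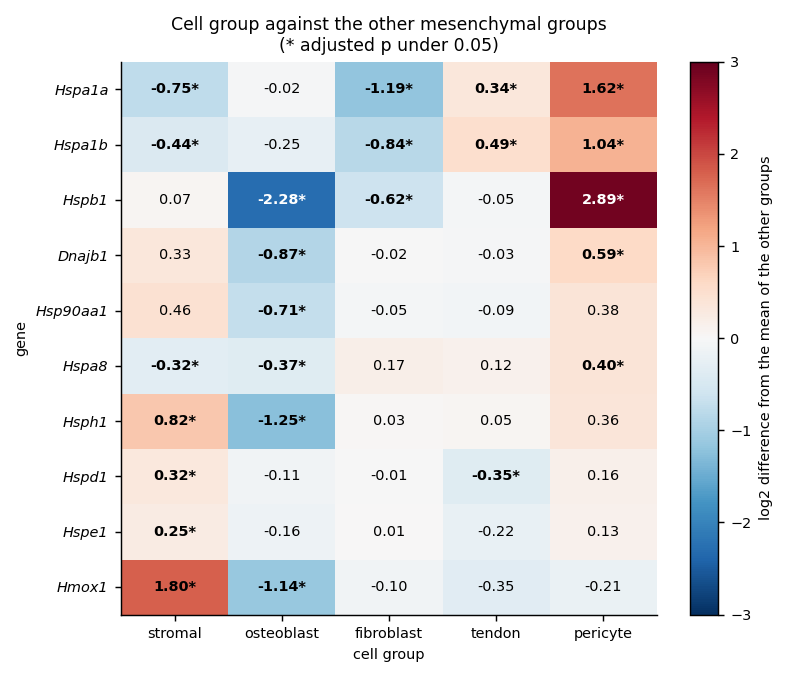
Fitted log2 difference of each gene between a mesenchymal cell group and the mean of the other groups, with blue for lower and red for higher values and an asterisk for an edgeR adjusted p under 0.05. Hspb1 ran from -2.28 in osteoblast-like to 2.89 in pericyte-like cells, and Hmox1 was highest in stromal-like cells at 1.80.

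CD24+ and CD24- cells of the mesenchymal groups were compared next, a comparison the study made for the surface protein that marked its cells of interest. Cd24a mRNA, which checks the antibody, was 78.3 CPM (young) and 59.9 CPM (old) in CD24+ cells and 9.19 and 8.08 CPM in CD24- cells. CD24+ cells numbered 633 and 221, and CD24- cells 7287 and 3984. The fit blocked on the mouse and used 4 sums, which left 1 degree of freedom for the residual spread, so its p-values lean on the spread shared over genes.

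In CD24+ mesenchymal cells 3 of the 10 genes rose and 1 fell, where 15.3% of the 15399 genes tested passed. Hspa1a was 778 CPM in CD24+ and 569 CPM in CD24- cells of the young mouse, and 535 and 379 CPM in the old mouse. It was higher in CD24+ cells of both mice, by 0.54 on the log2 scale in the fit (SE 0.09, edgeR adjusted p = 0.00441), although the old CD24+ value lay below the young CD24- value. Hspa1b was 542 against 468 CPM and 419 against 325 CPM, and rose by 0.35 (SE 0.10, edgeR adjusted p = 0.0409). Hspd1 was 157 against 136 CPM and 181 against 138 CPM, with no overlap between the statuses, and rose by 0.36 (SE 0.10, edgeR adjusted p = 0.0384).

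Hmox1 moved the other way. It was 18.1 CPM in CD24+ against 31.7 CPM in CD24- cells of the young mouse and 25.6 against 39.4 CPM in the old mouse, and fell by 0.66 (SE 0.11, edgeR adjusted p = 0.00389). Hspe1 did not overlap either, at 269 against 246 CPM and 301 against 231 CPM, yet missed the threshold (0.32, SE 0.11, edgeR adjusted p = 0.078). Hsp90aa1 and Hspa8 differed by less than 0.10 on the log2 scale in each mouse, in opposite directions. Hspb1 and Dnajb1 were near equal in the young mouse (314 against 307 CPM and 189 against 184 CPM) and lower in CD24+ cells of the old mouse (168 against 242 CPM and 114 against 158 CPM). With DESeq2 Hspa1a alone passed, and with each cell thinned to 2000 UMIs Hspd1 stood at -0.05 and Hmox1 at -0.37, neither past the threshold. The edgeR calls of Hspa1b and Hspd1 were also lost at a 10% mitochondrial limit (adjusted p = 0.175 and 0.0958), and that of Hspd1 with doublets removed (0.27, adjusted p = 0.0753). Without the mouse as a block none of the 4 passed edgeR's test.

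CD24+ cells were a different mix of cells. Osteoblast-like cells made up 36.3% and 41.2% of CD24+ mesenchymal cells against 11.5% and 12.4% of CD24- cells, and chondrocyte-like cells 6.79% and 6.33% against 0.974% and 0.402%. Stromal-like cells, the mesenchymal group with the highest Hmox1, made up 24.6% and 26.7% against 40.6% and 47.4%. Median depth was 9295 and 14201 UMIs in CD24+ against 6194 and 9885 in CD24- cells. Immediate-early genes were near equal, at 12680 and 11040 against 13527 and 12984 CPM.

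Markers of blood cells also differed between the statuses. The 6 erythroid markers other than the globin genes summed to 38.9 and 95.9 CPM in CD24+ against 6.93 and 7.56 CPM in CD24- mesenchymal cells, and the B-lineage list to 111 and 24.5 against 5.22 and 2.17 CPM. With the globin genes the whole erythroid list stood at 185 and 793 against 868 and 133 CPM, lower in CD24+ cells of the young mouse and higher in those of the old mouse. The megakaryocyte list was lower in CD24+ cells, at 21.4 and 18.4 against 50.2 and 39.0 CPM. Doublets were called in 8.53% and 3.17% of CD24+ against 1.76% and 0.853% of CD24- cells. A repeat of the fit therefore left out cells with any UMI of a B-lineage marker or of an erythroid marker other than the globins. Below, these are the cells with blood markers. Globin, neutrophil and megakaryocyte UMIs did not exclude a cell. With all cells, the neutrophil list stood at 1604 and 1681 CPM in CD24+ against 1103 and 1782 CPM in CD24- mesenchymal cells. In stromal-like cells it stood at 6462 and 4737 against 3232 and 4411 CPM. Its part in the Hmox1 difference was not tested. The repeat was chosen after seeing the data. It left 536 and 177 CD24+ and 6843 and 3641 CD24- cells, and 10.2% of genes passed. Hspa1a kept its difference, at 827 against 574 CPM and 552 against 377 CPM (0.64, SE 0.07, edgeR adjusted p = 0.000555). Hspa1b (0.38, edgeR adjusted p = 0.0116) and Hmox1 (-0.55, edgeR adjusted p = 0.0148) passed as well. Hspd1 did not, at 122 against 132 CPM and 112 against 134 CPM (-0.08, edgeR adjusted p = 0.656), and Hspe1 stood at -0.09.

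Within cell groups the picture changed. In stromal-like cells (156 and 59 CD24+ cells) none of the 10 genes passed edgeR's test and none had an unadjusted p under 0.05, where 3.7% of all genes passed. Hspa1a was 611 against 576 CPM in the young and 318 against 396 CPM in the old mouse, and Hmox1 41.1 against 63.6 CPM and 61.03 against 72.1 CPM. In osteoblast-like cells (230 and 91 CD24+ cells) none passed either, with 1 gene at an unadjusted p under 0.05, where 0.507% of all genes passed. Hspa1a was 731 against 719 CPM and 628 against 463 CPM there (log2 difference 0.23, SE 0.12). Hmox1 was 6.62 against 12.8 CPM and 12.3 against 10.3 CPM (-0.35, SE 0.34), on 15 and 18 UMIs in CD24+ cells, so a difference of the pooled size could not be told from none at this depth. Without the cells that held blood markers, osteoblast-like cells still gave none (edgeR, 1 at an unadjusted p under 0.05), where 0.739% of genes passed. Doublets were called in 21.8% and 6.78% of CD24+ against 3.51% and 1.43% of CD24- stromal-like cells. Without the cells that held blood markers, Hspe1 stood at -0.55 (SE 0.13, edgeR adjusted p = 0.00295) and Hsph1 at -0.60 (SE 0.16, edgeR adjusted p = 0.0184) in stromal-like cells, where 2.78% of genes passed and 119 and 39 CD24+ cells remained. No other tool was run within groups.

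In fibroblast-like cells (143 and 39 CD24+ cells) 3 of the 10 genes rose, where 8.29% of all genes passed, and none of the 3 passed once cells with blood markers were left out. Hspd1 was 238 CPM in CD24+ against 116 CPM in CD24- cells of the young mouse and 209 against 125 CPM in the old mouse (log2 difference 0.89, SE 0.12, edgeR adjusted p = 6.43e-05). Hspe1 was 332 against 217 CPM and 376 against 218 CPM (0.69, SE 0.12, edgeR adjusted p = 0.000537). Hsp90aa1 was 630 against 477 CPM and 664 against 510 CPM (0.38, SE 0.11, edgeR adjusted p = 0.0265). None of these overlapped between the statuses, while Hspa1a and Hspa1b stood at -0.06 and -0.20 and did not pass. The HSP90 cochaperone genes Fkbp4, Stip1 and Cacybp rose by 0.83, 0.59 and 0.44 in the same cells, and 9 of the 14 immediate-early genes fell. Gclm, which helps make glutathione, rose by 1.05, Prdx6 by 0.96 and Blvrb by 0.86.

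The same CD24+ fibroblast-like cells held erythroid markers. Klf1, an erythroid transcription factor, was 17.4 and 36.5 CPM in CD24+ against 1.02 and 1.13 CPM in CD24- cells, and all 8 erythroid markers were above 0 in both. The whole erythroid list, globin genes included, stood at 300.4 and 257 against 402 and 56.8 CPM, which is lower in CD24+ cells of the young mouse. The 6 markers other than the globins summed to 97.0 and 128 against 5.41 and 5.57 CPM. Doublets were called in 13.3% and 5.13% against 0.692% and 0.553% of cells. Erythroid-like cells were also the highest group for Hspd1, Hspe1 and Hsp90aa1. With doublets removed Hspd1 and Hspe1 passed and Hsp90aa1 did not (0.31, edgeR adjusted p = 0.0532). With cells holding any of the erythroid markers other than the globins, or any B-lineage marker, left out, 112 and 28 CD24+ cells remained, and none of the 10 genes passed edgeR's test or had an unadjusted p under 0.05, where 0.528% of genes passed. Hspd1 was then 133 against 112 CPM and 85.8 against 119 CPM (-0.01, SE 0.18), Hspe1 226 against 214 CPM and 216 against 213 CPM (0.07, SE 0.13) and Hsp90aa1 439 against 473 CPM and 561 against 498 CPM (0.05, SE 0.12). Fkbp4 stood at 0.07, Stip1 at 0.20, Cacybp at 0.05, Gclm at 0.22, Prdx6 at 0.04 and Blvrb at -0.36, and none of the immediate-early genes passed (6 of 14 at an unadjusted p under 0.05).

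In tendon-like cells Hspa1a was 1898 CPM in CD24+ against 924 CPM in CD24- cells of the young mouse and 1072 against 527 CPM in the old mouse (log2 difference 1.06, SE 0.18, edgeR adjusted p = 0.0138). It was the only one of the 10 to pass, where 0.351% of all genes did, and the CD24+ side held 51 and 13 cells. Without the cells that held blood markers it stood at 1.13 (SE 0.18) and just missed the threshold (edgeR adjusted p = 0.0608), where 0.0596% of genes passed. With all cells Nr4a1 was the only other listed gene to pass, at 1.01 (edgeR adjusted p = 0.0487), and without those cells it did not (1.05, edgeR adjusted p = 0.117). No test was made of whether the CD24 differences of these groups differ from each other.

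Over all kept cells, blood cells included, 6 of the 10 genes passed, where 57.5% of the 16230 genes tested did. Hspd1 was 423 against 176 CPM and 349 against 150 CPM (1.505, SE 0.22, edgeR adjusted p = 6.78e-08), Hspe1 640 against 303 CPM and 534 against 255 CPM, and Hsp90aa1 1155 against 671 CPM and 1044 against 574 CPM. Hspb1 was lower in CD24+ cells, at 144 against 290 CPM and 54.4 against 230 CPM, as was Hmox1, at 8.26 against 29.2 CPM and 9.10 against 39.9 CPM. Hsph1 rose by 0.69. The Hspb1 call was lost without the mouse block (-1.16, edgeR adjusted p = 0.0743) and the Hsph1 call with thinning (0.31, edgeR adjusted p = 0.176). Erythroid-like cells, which were the highest group for Hspd1, Hspe1 and Hsp90aa1 and among the lowest for Hmox1 and Hspb1, were CD24+ in 76.8% and 87.7% of cases.

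**Figure D3:**
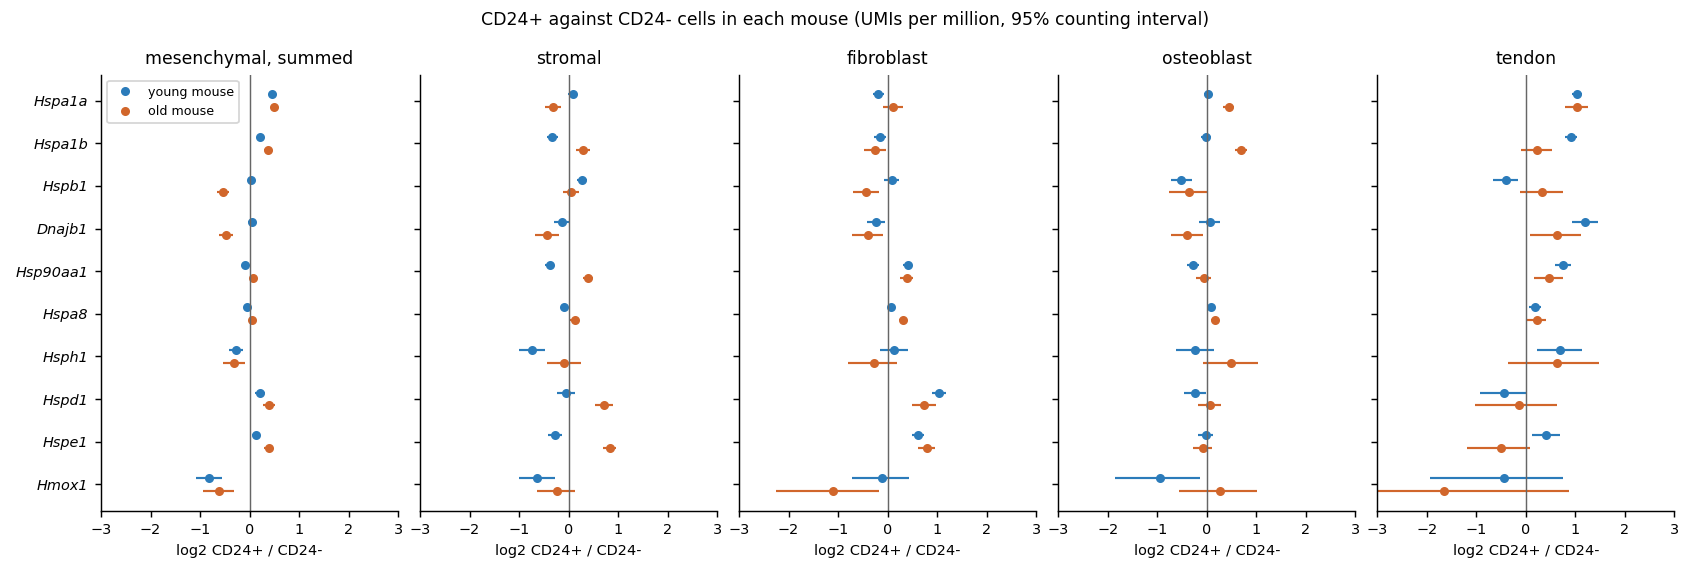
Log2 ratio of CPM in CD24+ to CD24- cells for each gene in the young mouse (blue) and the old mouse (orange), over all mesenchymal cells and within 4 groups, with 95% counting intervals as lines that are cut at the axis limits. Cells with blood markers are included, with which Hspd1 and Hspe1 lay above 0 in both mice in fibroblast-like cells, and Hspa1a lay near 1.0 in both mice in tendon-like cells.

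The counts of the genes listed around them in the pooled mesenchymal comparison stand beside the 15.3% of all genes that passed. In CD24+ cells 2 of 25 cytosolic chaperones rose (Hspa4l at 0.68 and Fkbp4 at 0.51) and 1 fell (Hspb8 at -0.69). Of 28 oxidative stress genes 3 rose (Blvrb at 0.64, Gclm at 0.63 and Prdx6 at 0.47) and 3 fell, Gsr at -0.47 among them. Of the 14 immediate-early genes 1 rose, Ier3 at 0.39. Without the cells that held blood markers none of the oxidative stress genes rose and 4 fell (edgeR, 8 of 28 at an unadjusted p under 0.05 in either direction), with Gclm at 0.06, Prdx6 at 0.08 and Blvrb at -0.37, and Fkbp4 stood at 0.07 and Hspa4l at 0.68. The medians of the lists, those of mitochondrial and endoplasmic reticulum chaperones included, lay between -0.08 and 0.14, against -0.01 over all genes.

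The old and the young mouse were compared by their summed mesenchymal cells. With 1 mouse per age there is no replicate and no test, so a difference belongs to these 2 libraries, and age cannot be told apart from mouse and library. Of 14914 genes with at least 50 UMIs, 3.97% were at least 1.5-fold lower and 5.04% at least 1.5-fold higher in the old library. Of the 10 genes 1 was at least 1.5-fold lower and none at least 1.5-fold higher. With thinning to 2000 UMIs none was that far apart (Hspa1a at -0.50), and with equal weight for each cell group Hspb1 (-0.76) and Hmox1 (0.71) were and Hspa1a (-0.57) was not. Equal weight gives the small pericyte-like and chondrocyte-like groups as large a part as the others. Hmox1 rested on 1 (young) and 22 (old) UMIs in the former and on 7 and 14 in the latter. For Hspb1, 1 cell gave 28.0% of the young pericyte-like UMIs. In the main setting the median log2 ratio of the 10 genes was -0.20 against 0.01 over all genes.

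Hspa1a was 593 CPM in the young and 391 CPM in the old library, 1.52-fold lower (log2 ratio -0.60, 95% counting interval -0.63 to -0.58). Hspa1b was 476 and 332 CPM, just under the limit at 1.44-fold lower. Hspb1 was 308 and 236 CPM, Hsph1 76.2 and 59.2 CPM, and Dnajb1 185 and 154 CPM, with log2 ratios of -0.38, -0.37 and -0.26. These 5 genes were thus all lower in the old library. Hsp90aa1 (598 and 541 CPM), Hspa8 (1225 and 1137 CPM) and Hspe1 (249 and 236 CPM) differed by at most 0.14 on the log2 scale. Hspd1 was 138 and 141 CPM, with an interval that spans 0. Hmox1 was 30.1 and 38.4 CPM, higher in the old library by 0.35 (0.26 to 0.45).

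The lower HSP70 levels of the old library were seen within cell groups too. The log2 ratio of Hspa1a was -0.89 in tendon-like, -0.79 in pericyte-like, -0.74 in fibroblast-like and -0.56 in both stromal-like and osteoblast-like cells, and -0.10 in chondrocyte-like cells, where the interval spans 0. Hspb1 was less even, with -1.34 in osteoblast-like and -1.09 in pericyte-like cells but 217 CPM in both libraries in fibroblast-like cells. Hsph1 was 1.48-fold lower in stromal-like cells and 2.02-fold lower in osteoblast-like cells, while it was 54.3 and 58.3 CPM in fibroblast-like cells, where the interval spans 0. Hmox1 was higher in the old library in fibroblast-like cells (0.58, 0.39 to 0.78) and stromal-like cells (0.21, 0.10 to 0.33), and its interval spans 0 in osteoblast-like and tendon-like cells.

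**Figure D4:**
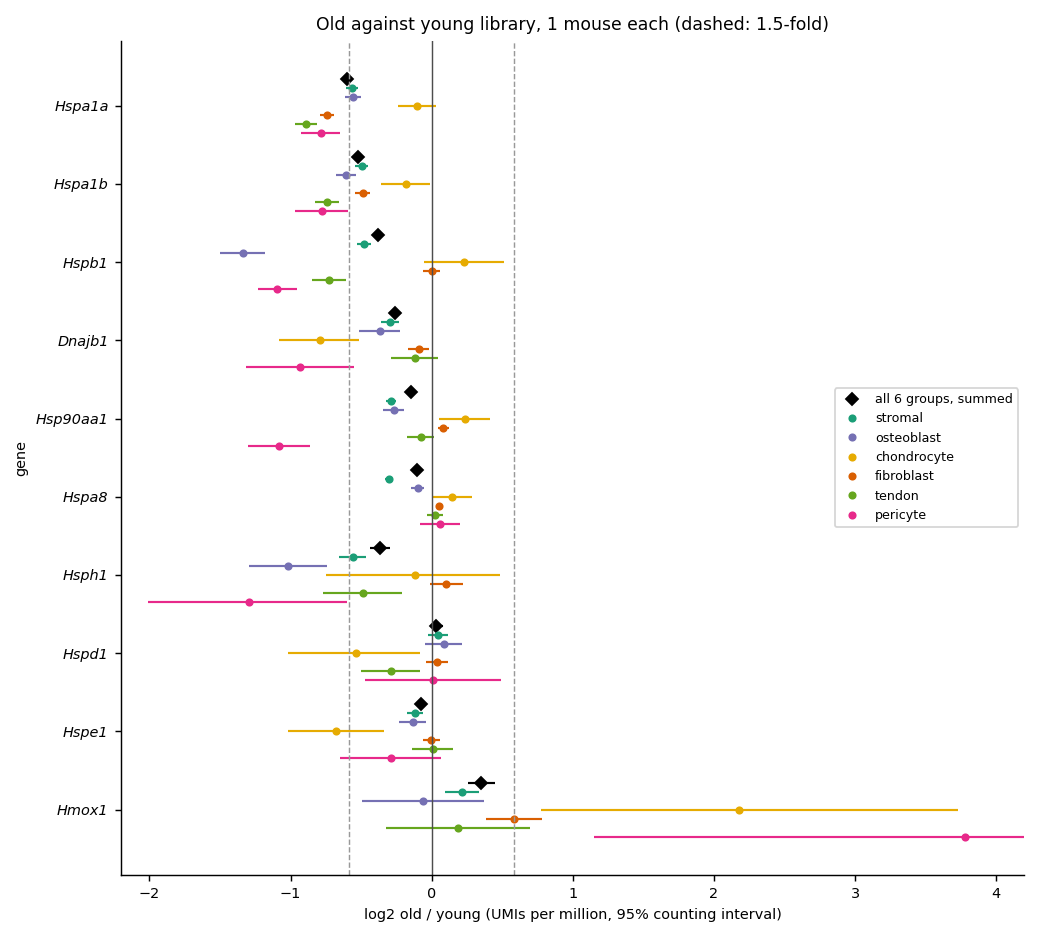
Log2 ratio of CPM in the old to the young mouse for each gene, over all mesenchymal cells and in each mesenchymal group, with 95% counting intervals as lines that are cut at the axis limits. Hspa1a lay at -0.60 over all mesenchymal cells and below 0 in every group, although its interval spans 0 in chondrocyte-like cells, and Hmox1 lay at 0.35.

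The wider lists held few genes beyond 1.5-fold. None of 25 cytosolic, 6 mitochondrial or 13 endoplasmic reticulum chaperones was that far apart, and of 28 oxidative stress genes 1 was, the peroxidase gene Gpx3 at 0.59. Hspb8 was the lowest cytosolic chaperone at -0.52. Of the 14 immediate-early genes none passed 1.5-fold, with a range from -0.39 (Nr4a1) to 0.44 (Socs3). The list medians lay between -0.10 and 0.05. The old library was the deeper one, and a mesenchymal-like cell of it had a median of 10071 UMIs against 6394.5.

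Across single mesenchymal cells the genes of the cytosolic response varied together. Pearson's r of log-scaled values was computed for the 45 pairs of the 10 genes over 7920 young and 4205 old cells, as a description, since the cells of a mouse share a library and depth. It ran from 0.08 to 0.66 in the young and from 0.07 to 0.69 in the old mouse. Hspa1a with Hspa1b was the only pair over 0.5 in both, the pair whose reads may not be fully told apart. Over UMIs of cells thinned to 2000 UMIs that pair stood at 0.67 and 0.63. Hspd1 (0.09 and 0.16) and Hmox1 (0.13 and 0.15) were the genes least tied to Hspa1a.

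**Figure D5:**
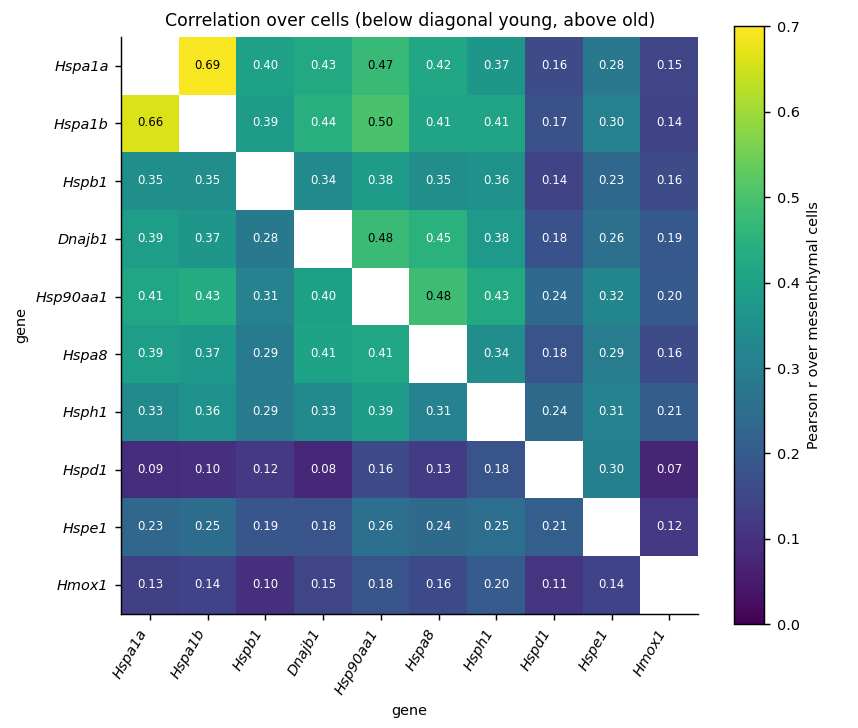
Pearson's r between each pair of the 10 genes over single mesenchymal cells, with the young mouse below and the old mouse above the diagonal. Hspa1a and Hspa1b reached 0.66 and 0.69, while pairs with Hspd1 or Hmox1 were at most 0.30.

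Among 9502 genes found widely enough, those most like Hspa1a by the lower of its correlations in the 2 mice included Fos (0.47 and 0.47), Jun (0.45 and 0.46), Egr1, Junb and Fosb, which are immediate-early genes. The 10 genes themselves were left out of this ranking. By the same measure Hspa1b (0.66 and 0.69) was closer to Hspa1a than Fos and Jun were. Hsp90aa1 (0.41 and 0.47), the next of the 10 genes, was less close than these 2. For Hspd1 the closest others were Hsp90ab1 (0.16 and 0.24), Dnaja1 (0.13 and 0.20), Ppia, Rhob, Npm1 and Ubb, all weak, and Hspe1 (0.21 and 0.30) was closer. For Hmox1 they were Dnaja1 (0.20 and 0.20), Hes1, Rhob and Cebpd and the stromal markers Hp and Esm1, between 0.14 and 0.20 in both mice, and Hsph1 (0.20 and 0.21) was as close.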

How the data were processed

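The values were raw UMI counts per gene and cell, as deposited by the authors, 1 matrix per mouse, with 32285 genes and 1 antibody. Per the file headers the matrices were written by Cell Ranger 6.1.1. The submitters' processing notes name mm10, R 4.0.3 and Seurat 4.0, and no normalization had been applied. A 3′ library reads the transcript end, and free RNA in a droplet is counted with the cell. The filter on cells was the one the study states. Scrublet (scanpy 1.11.5, seed 1) called 2.67% and 1.02% of cells doublets, shares that are low for libraries of this size. They were kept, as in the study's filter, and removed in an alternative. Depth was 81076421 UMIs over 10063 young and 66702846 over 5607 old cells.

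A cell was placed in the group of 16 marker lists of which it held the most distinct markers as a share of the list, with at least 3 markers and no tie. This scoring rule was set after marker counts were seen. CD24+ meant an antibody count above Otsu's threshold on log values of its library (313 young and 397 old, scikit-image 0.26.0).

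UMIs were summed per mouse and group and tested with edgeR 4.0.16 in R 4.3.3 (quasi-likelihood, TMM, filterByExpr, two-sided, Benjamini-Hochberg over all genes tested). The mouse was a block because both sums of a pair came from 1 animal. Cells are not replicates, and with 1 mouse per age no age test was made. The steps were tested on simulated counts. All 10 genes were named in every comparison, and of each list around them at most 4 genes that moved most. The genes and lists were chosen with earlier results of these data known. Alternatives were DESeq2 1.42.0, its size factors, no filter, no block, a 10% mitochondrial limit, doublets removed, a mixture threshold for CD24, thinning to 2000 UMIs, leaving out each mouse, a stricter marker rule, and, chosen after seeing the data, CD24 within cell groups, the CD24 comparisons without cells holding any UMI of an erythroid marker (globins apart) or B-lineage marker, and leaving out the richest cell. One gene of like pattern is not reported here.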

Additional observations from a re-analysis of the deposited data

Results flagged for a closer look

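In some genes the CD24+ to CD24- log2 ratio of CPM had opposite signs in the 2 mice. Over mesenchymal cells Hsp90aa1 stood at -0.089 (young) and 0.078 (old), and Hspa8 at -0.048 and 0.058. Over all kept cells Hspa1a stood at -0.088 and 0.084, and Hspa1b at -0.27 and 0.095. Within stromal-like cells Hspa1b stood at -0.33 and 0.29, Hsp90aa1 at -0.39 and 0.38, Hspa8 at -0.095 and 0.12, and Hspe1 at -0.28 and 0.82. With 1 mouse per age, whether the mice differ in these ratios was not tested.

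The old to young log2 ratio had opposite signs in different cell groups for Hsp90aa1 and Hspa8. Hsp90aa1 stood at -0.29 in stromal-like, -0.27 in osteoblast-like and -1.08 in pericyte-like cells, and at 0.23 in chondrocyte-like and 0.081 in fibroblast-like cells. Hspa8 stood at -0.30 in stromal-like and -0.100 in osteoblast-like cells, and at 0.15 in chondrocyte-like and 0.053 in fibroblast-like cells. The difference between groups was not tested.

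Barcodes left out for mitochondrial UMIs that had at least 200 genes (720 young, 824 old, median depths of 975.5 and 1387 UMIs) held more of 4 genes per UMI than kept cells did, with mitochondrial UMIs counted in the total. Hspa1a was at 618 and 621 CPM against 579 and 383 in kept cells, Hspa1b at 571 and 563 against 457 and 328, Hsp90aa1 at 967 and 934 against 787 and 675, and Hsph1 at 151 and 176 against 81.2 and 64.3. With mitochondrial UMIs left out of both totals, Hspa1a stood at 1005 and 1028 against 597 and 395 CPM, and Dnajb1 was higher too, at 244 and 188 against 180 and 151 CPM. Hspb1, Hspd1 and Hspe1 were lower in these barcodes, with Hspe1 at 119 and 96.7 CPM against 384 and 315.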

How the results depend on the processing

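The pooled CD24 comparison changed under several settings. Against 4 of the 10 genes passing and 2362 genes in all, DESeq2 called 1 and 1189, and leaving the mouse block out called 0 (edgeR, 3 at an unadjusted p under 0.05) and 359. A 10% mitochondrial limit called 2 of the 10, and thinning to 2000 UMIs 2 of the 10 and 1052 in all. Within stromal-like and osteoblast-like cells 0 passed in edgeR (0 and 1 at an unadjusted p under 0.05) and within tendon-like cells 1. Without cells holding blood markers, 1527 genes passed over mesenchymal cells, and of the 10 genes 0 passed against 3 within fibroblast-like cells, where 67 genes in all passed against 1091 (edgeR, 0 at an unadjusted p under 0.05), 2 against 0 within stromal-like cells and 0 against 1 within tendon-like cells (4 at an unadjusted p under 0.05). Thinning called 5961 genes over all kept cells against 9332. Leaving out a mouse turned the sign of Hspb1 (-0.44 to 0.07), Dnajb1 (-0.39 to 0.08) Hsp90aa1 (-0.05 to 0.16) and Hspa8 (-0.0097 to 0.14), and moved Hspa1b between 0.25 and 0.45 and Hspd1 between 0.25 and 0.48. For age, thinning left 355 genes 1.5-fold lower against 592, and 0 of the 10 genes, and equal weight for each cell group gave 1118 and 2. The cause of these shifts was not tested.

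Other signs turned in genes that passed under neither setting, apart from those named as passing. In the CD24 comparison with thinning, Hspb1 stood at 0.0083, Hsp90aa1 at -0.092 and Hspd1, which had passed, at -0.047. Within fibroblast-like cells Hspa1a and Hspa1b, which had passed, stood at -0.060 and -0.20. Within osteoblast-like cells Hsp90aa1 stood at -0.17, Hsph1 at 0.056, Hspd1 at -0.090 and Hspe1 at -0.046. Within stromal-like cells Hspa1a stood at -0.028 and Hspb1 at 0.25, and within tendon-like cells Dnajb1 at 0.97, Hsph1 at 0.72 and Hspd1 at -0.28. Without cells holding blood markers, Hsp90aa1 stood at -0.15, Hspd1, which had passed, at -0.084 and Hspe1 at -0.086 over mesenchymal cells. Within fibroblast-like cells Hspa1a then stood at 0.27 (0.049 with doublets removed), Hspa1b at 0.069, Hspb1 at 0.20, Hsph1 at 0.17 and Hspd1, which had passed, at -0.012. Within stromal-like cells Hspa1b stood at -0.29, Hsp90aa1 at -0.21, Hspa8 at -0.17, Hspd1 at -0.39 and Hspe1, now passing, at -0.55, within osteoblast-like cells Hsph1 at -0.15, and within tendon-like cells Hspb1 at 3.2e-05.

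In the comparison of cell groups, a 10% mitochondrial limit gave 0.090 for Dnajb1, 0.030 for Hsp90aa1 and 0.018 for Hspd1 in fibroblast-like cells, 0.0072 for Hspa1a in osteoblast-like cells, -0.43 for Hsph1 and -0.077 for Hspe1 in pericyte-like cells, and 0.0047 for Hspb1 and 0.087 for Dnajb1 in tendon-like cells. Without the richest cell, fibroblast-like Dnajb1 stood at 0.17, Hsp90aa1 at 0.030 and Hspd1 at 0.0018, osteoblast-like Hspa1a at 0.077, pericyte-like Dnajb1, which had passed, at -0.078, Hsph1 at -0.46 and Hspe1 at -0.11, and tendon-like Dnajb1 at 0.11. With 1 more marker needed, fibroblast-like Dnajb1 stood at 3.3e-05 and Hmox1 at 0.49, and tendon-like Hsph1 at -0.046 and Hmox1 at 0.18. DESeq2 size factors gave -0.0054 for Hsph1 and -0.024 for Hspe1 in fibroblast-like cells. With no filter on low counts fibroblast-like Hspe1 stood at -0.0085 and osteoblast-like Hspa1a at 0.0046, and with doublets removed fibroblast-like Hspe1 stood at -0.0099. Stromal-like Dnajb1 and Hsp90aa1 passed under some settings, at most at 0.49 and 0.54.

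The precision of every test is limited by 2 mice, and Hmox1 in pericyte-like and chondrocyte-like cells by 1 and 22 and by 7 and 14 UMIs in the 2 mice.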
